A study of Mus musculus with 4 samples.

Results

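The spinal cord of mice carrying the G93A mutant of human SOD1 was compared with that of wild type (WT) mice, both given vehicle, by RNA sequencing. A gene entered the comparison when the mean of its deposited values over the 4 libraries of the series was at least 1, which held for 12987 of the 18674 gene names. Values are in RPKM, read density along a transcript corrected for its length and for the depth of the library, and a gene with several transcript rows has the mean of its rows. A difference is the log2 of the ratio of G93A vehicle to WT vehicle after 0.1 RPKM was added to both, and "higher" or "lower" in a count means a ratio of at least 1.5-fold in G93A vehicle on that scale.

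The series has 4 libraries, 1 for each of WT vehicle, G93A vehicle, WT + SD and G93A + SD, where SD is spermidine. According to the methods, treatment studies used males only, and the colony was made by crossing males of the high-expressing H1 line of G93A with B6/SJLF1 females. They were killed at 100 days of age after 30 days of PBS or SD, given 4 times per week by the sample labels (the text of the study also names another frequency), and the lumbar cord was taken for polyA RNA. The vehicle mice of both genotypes therefore shared age, sex, PBS schedule and, as far as the methods state, background, and differed in the transgene. The number of animals behind a library is not given in the sources used here. With 1 library per condition no difference has a replicate check, no p-value is given, and all differences are those of the libraries labelled so. The SD libraries are shown beside them as levels and as a second pair of the genotypes that has no library in common with the vehicle pair. The transgene is a human gene and was not measured here as a row of its own, so that it gives no check of the genotype labels.

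Mutant SOD1 causes an inherited form of amyotrophic lateral sclerosis, in which motor neurons of the cord and brainstem degenerate and muscles become paralysed. In the cord of such mice, motor axons retract from muscle while microglia, the resident phagocytes, multiply and take on an activated state, and astrocytes become reactive and enlarge their intermediate filaments. Whole cord RNA mixes all of these cells, and RPKM is relative to the whole library. A difference in a gene can therefore reflect the number of cells of a type, the RNA per cell or the rest of the library. These cannot be told apart here.

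The depth of the libraries was estimated from the steps between low values at 36800000 read pairs in WT vehicle and 38000000 in G93A vehicle, and at 38300000 and 38600000 in WT + SD and G93A + SD. The most common low values stood for more aligned bases than the read length stated in the methods, and this amount was taken as a read pair, so that all numbers of read pairs are estimates that rest on this reading. Defining genes of cord tissue were present in both vehicle libraries. Hoxc10, a patterning gene of the lumbar segments, was at 19.8 RPKM in WT vehicle and 12.7 in G93A vehicle, and the myelin gene Mbp at 4669 and 3714. Hoxc10 itself was lower in G93A vehicle (-0.63), and it and Hoxd11 (-0.85) were the 2 of 29 Hox genes that were lower, in both pairs. Skeletal muscle genes other than Pvalb and Tnni1 were near 0, with a summed level of 3.36 RPKM in WT vehicle and 4.62 in G93A vehicle over 19 genes. Tnni1 was higher in G93A vehicle (2.47), in both pairs, and Pvalb did not pass (-0.46). The median difference over all genes tested was 0.05, with quartiles of -0.18 and 0.30, so that the genes on the whole were level between the libraries.

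Far more genes were higher than lower in G93A vehicle, and the largest differences were all upward. At least 1.5-fold higher were 1696 genes (13.1%), and at least 1.5-fold lower were 563 (4.34%). At 2-fold the numbers were 869 and 71, at 4-fold 304 and 5, and at 8-fold 101 and 0. Among genes with a mean of 1 to 5 RPKM 19.6% were higher, against 9.31% at 20 to 100 RPKM and 14.6% above that. Between the WT libraries, which differ by SD and by being separate libraries, 246 genes (1.89%) differed at least 1.5-fold in either direction, and the median size of a log2 difference was 0.082, against 0.24 between the genotypes under vehicle.

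The second pair showed the same direction for most of these genes. Of the 1696 higher genes, 1522 (89.7%) passed the same threshold upward between the SD libraries, and 2 passed it downward there. Of the 563 lower genes, 427 (75.8%) were also lower and 6 were higher. Of all genes tested, 15.8% were higher and 7.85% lower in the SD pair, and 11.7% were higher and 3.29% lower in both.

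**Figure D1:**
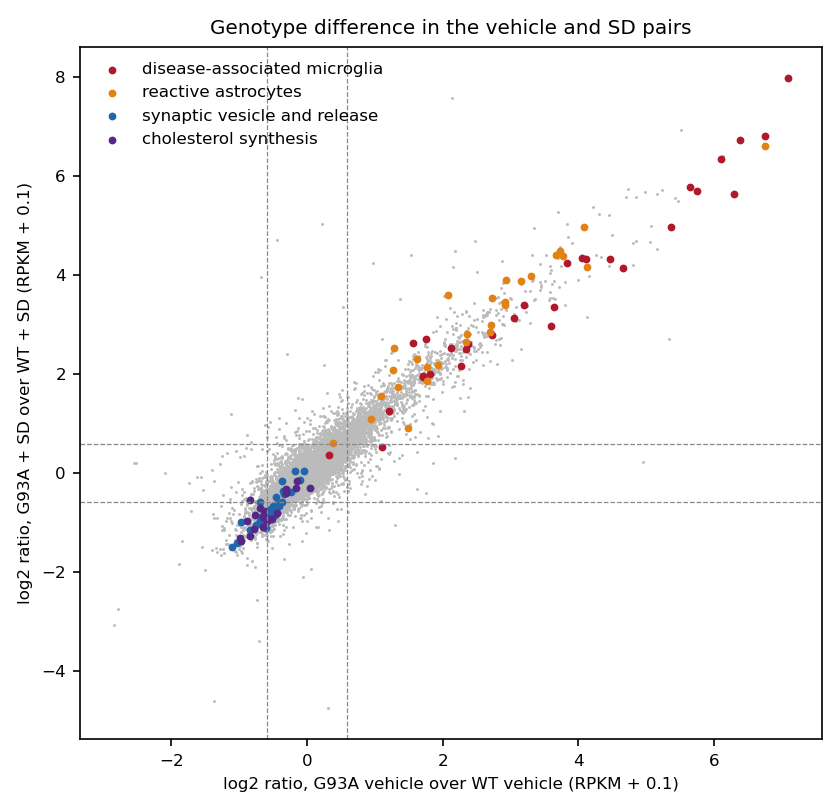
Each point is 1 of the 12987 genes, with the log2 ratio of G93A to WT under vehicle on the horizontal axis and under SD on the vertical axis, and 4 gene lists in colour. Dashed lines mark 1.5-fold, and the 29 of 30 disease-associated microglia genes that were higher under vehicle lie far to the right, while synaptic vesicle and cholesterol synthesis genes lie to the lower left.

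Genes were then grouped into 69 lists of cell classes, pathways and families, which hold 1376 of the genes tested and share some members. Each list is given as the genes tested, the numbers higher and lower, and the median difference, to be read against the 13.1% higher, 4.34% lower and median of 0.05 over all genes.

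Genes of disease-associated microglia had a larger median difference than all other lists but the Ms4a family (4.85) and the Serpina3 cluster (4.08). The latter lists had 3 tested genes each. Whole cord RNA does not assign these differences to a cell type. The disease-associated state of microglia is a program of lipid handling, phagocytosis and lysosomal digestion that microglia turn on around damaged neurons, with the receptor Trem2 and its adaptor Tyrobp upstream. Of its 30 genes 29 were higher and 0 lower, with a median of 3.40, and 28 of the 29 were also higher in the SD pair. The gene that did not pass was Ank.

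Cst7, an inhibitor of cysteine cathepsins, had a level of 0.273 RPKM in WT vehicle, 50.7 in G93A vehicle, 0.127 in WT + SD and 56.7 in G93A + SD. Its difference was 7.09 on the log2 scale, from an estimated 9.91 read pairs in WT vehicle and 1901 in G93A vehicle. Both G93A libraries stood well above both WT libraries, and the same held for the following genes. Itgax, the CD11c integrin subunit, was at 0.0925 RPKM in WT vehicle and 13.2 in G93A vehicle (log2 difference 6.11). Clec7a, the receptor dectin-1 for fungal glucans, was at 0.325 and 35.3 (6.38). Gpnmb, a membrane glycoprotein of phagocytes loaded with lipid, was at 0.313 and 32.3 (6.29). These genes were close to absent in WT cord, and the size of their ratios therefore rests on few reads in WT.

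Other genes of the program had higher levels in WT cord. Apoe, the main lipid carrier of the nervous system, was at 585.8 RPKM in WT vehicle and 1975 in G93A vehicle (1.75), and stood at 460.5 and 2975 in the SD libraries. Lyz2, the lysozyme of myeloid cells, was at 4.64 RPKM in WT vehicle and 509.7 in G93A vehicle. Trem2 was at 5.31 and 65.1 RPKM (3.59), and Tyrobp at 9.67 and 139.3 (3.83). Both receptor and adaptor were thus more than 10-fold higher in G93A vehicle. Lpl, a lipase that frees fatty acids from lipoproteins, was at 1.87 and 24.3 RPKM (3.63), and Spp1, the secreted protein osteopontin, differed by 2.34.

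Homeostatic microglia genes, which mark resting microglia of healthy tissue, moved less and unevenly. Of 19 genes 13 were higher and 0 lower, with a median of 1.11. P2ry12, the purine receptor that guides resting microglial processes, was at 15.9 RPKM in WT vehicle and 16.7 in G93A vehicle, and at 16.1 and 19.6 with SD. Both G93A libraries lay above both WT libraries for this gene too, but by under 1.5-fold in each pair. Sall1, a transcription factor of microglial identity, was at 10.9 and 12.2 RPKM, and Tmem119 at 8.27 and 12.4 (0.58), just under 1.5-fold on this scale. In contrast Csf1r, the growth factor receptor on which microglia depend, was at 22.4 and 74.9 RPKM (1.74), the fractalkine receptor Cx3cr1 at 14.1 and 41.7 (1.56), and Fcrls, an Fc receptor-like gene of microglia, at 1.61 and 16.9 (3.32). The difference between the medians of the disease-associated and homeostatic lists is given as a description and was not tested.

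**Figure D2:**
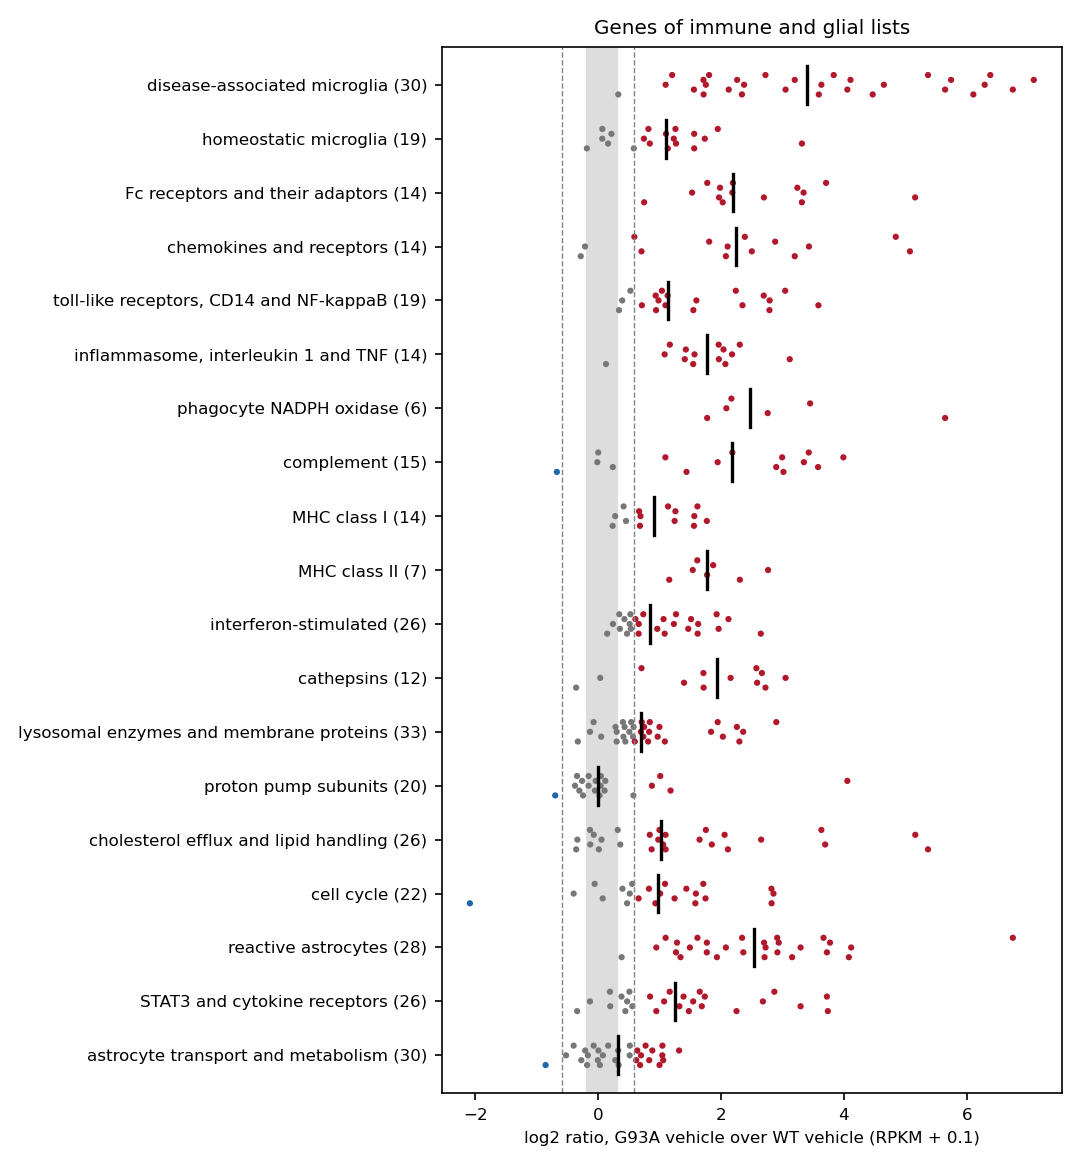
Log2 ratio of G93A vehicle to WT vehicle for each tested gene of 19 immune and glial lists, with the number of genes in brackets. Red points are at least 1.5-fold higher and blue at least 1.5-fold lower, black bars are list medians, dashed lines mark 1.5-fold and the grey band holds the middle of all genes, from -0.18 to 0.30. The medians drawn run from 3.40 for disease-associated microglia to -0.01 for proton pump subunits, and the Ms4a family (4.85) is not drawn.

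The sensing and signalling equipment of phagocytes was higher almost throughout. All 14 tested Fc receptors and adaptors were higher (median 2.19), in both pairs, as were all 6 subunits of the phagocyte NADPH oxidase (2.46, and 1.46 with a pseudocount of 1), the enzyme complex that makes superoxide. Fcgr2b, the inhibitory Fc receptor, was at 0.875 RPKM in WT vehicle and 34.7 in G93A vehicle (5.16). Cybb, the catalytic subunit of the oxidase, was at 0.128 and 11.3 (5.65). Toll-like receptor and NF-kappaB genes were higher for 16 of 19 (1.13, and 1.87 at a mean of at least 5 RPKM), with the co-receptor Cd14 at 1.33 and 11.7 RPKM and Tlr2 at 1.72 and 12.5. Genes of the inflammasome, interleukin 1 and TNF were higher for 13 of 14 (1.77), and Il18 was the one that did not pass, at 14.1 and 15.5 RPKM.

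Promoters of Trem2, from the disease-associated microglia list, and Fcgr3, from the Fc receptor list, are shown with GAGGAAG, a core bound by PU.1, the transcription factor of myeloid cells. The sequences are from RefSeq on GRCm38.p6 and run from 250 bases before to 50 after the outermost start, on the strand of the gene, and 9077 of the 12987 genes tested had one. Trem2 lies at chr17:48346151-48346450 on the plus strand and Fcgr3 at chr1:171059354-171059653 on the minus strand. Each motif here and further on was searched on both strands, and capitals mark the matches.
Trem2: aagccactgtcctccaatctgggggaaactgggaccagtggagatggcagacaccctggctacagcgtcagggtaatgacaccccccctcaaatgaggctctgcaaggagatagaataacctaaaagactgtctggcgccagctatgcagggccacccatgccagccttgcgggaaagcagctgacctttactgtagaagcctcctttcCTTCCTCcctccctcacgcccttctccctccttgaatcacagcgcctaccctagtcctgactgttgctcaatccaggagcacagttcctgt
Fcgr3: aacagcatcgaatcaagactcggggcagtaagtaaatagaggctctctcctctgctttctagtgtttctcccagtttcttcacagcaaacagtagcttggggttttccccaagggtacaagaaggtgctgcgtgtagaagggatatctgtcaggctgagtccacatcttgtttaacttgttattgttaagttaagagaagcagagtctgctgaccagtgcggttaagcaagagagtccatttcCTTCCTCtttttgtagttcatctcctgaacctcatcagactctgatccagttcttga

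The PU.1 core stood in 6 of 12 promoters of the Fc receptor list and in 5 of 23 of the disease-associated microglia list. The share was 13.2% over all 9077 promoters and 17.3% over those of all higher genes. Fcgr3, the activating receptor whose promoter is shown, was at 3.96 RPKM in WT vehicle and 38.3 in G93A vehicle (3.24). A match of this kind describes the letters of the window and is not evidence of binding, and shares over so few promoters are descriptions.

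Chemokines were higher for 12 of 14 (2.25), with a median of 0.71 among those with a mean of at least 5 RPKM. Ccl3, a chemokine that attracts monocytes, was at 0.253 RPKM in WT vehicle and 11.8 in G93A vehicle (5.07), and its neighbour in function Ccl4 at 0.186 and 8.11 (4.84). Cx3cl1, the fractalkine that neurons present to microglia, did not pass, at 51.9 and 42.7 RPKM. Ligand and receptor of the fractalkine pair therefore had differences of opposite sign, of which that of the receptor passed 1.5-fold.

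Complement showed the same direction in its first component and its receptors but not in every regulator. Of 15 genes tested, 11 were higher and 1 lower (median 2.18, and 1.44 with no filter on low values). The 3 chains of C1q, which starts the classical cascade, had similar differences: C1qa was at 26.0 and 281.3 RPKM (3.43), C1qb at 22.3 and 178.5 (3.0) and C1qc at 17.4 and 130.2 (2.90). C3, the central component, was at 38.5 RPKM in WT vehicle and 175.4 in G93A vehicle, and at 12.4 and 277.2 in the SD libraries, so that its WT libraries differed from each other by more than 1.5-fold. C3ar1, the receptor for the C3a fragment, was at 0.453 and 8.69 RPKM (3.99), and Serping1, the inhibitor of C1, at 2.06 and 25.7 (3.58). The lower gene was Cd55, which protects cells from complement, at 4.19 and 2.60 RPKM (-0.67), which did not pass with SD, at 3.91 and 2.96 (-0.39).

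Antigen presentation and interferon genes were also higher. MHC class II genes were higher for 7 of 7 (median 1.77, and 1.17 with a pseudocount of 1), with the invariant chain Cd74 at 1.53 RPKM in WT vehicle and 11 in G93A vehicle. MHC class I genes were higher for 10 of 14 (0.91, and 1.37 against WT + SD), with B2m, the light chain of class I, at 80.0 and 235.8 RPKM. Among interferon-stimulated genes 17 of 26 were higher (0.85, and 0.51 with a pseudocount of 1). Of the 20 genes of the T cell list 4 passed the filter, and 3 of these, Ptprc, Il2rg and Ccl5, which microglia can also express, were higher, while Thy1, a surface protein of neurons too, was not. The other 16 genes, among them Cd3e, Cd4 and Cd8a, summed to 0.782 RPKM in WT vehicle and 1.77 in G93A vehicle. The list of B cells, neutrophils and mast cells summed, without Kit, to 1.22 and 3.16 RPKM over 13 genes, and the highest of these genes was at 0.583 RPKM in WT vehicle and 1.27 in G93A vehicle. Levels of these defining genes were thus near 0 in both vehicle libraries.

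Digestion in the lysosome was described by 3 lists. The cathepsins, the proteases of the lysosome, were higher for 10 of 12 (median 1.94). Ctsd, the aspartic cathepsin, was at 186.4 RPKM in WT vehicle and 1545 in G93A vehicle (3.05), and at 173.5 and 1516 with SD, although 34.8% of its sequence windows are shared with an annotated readthrough transcript. Ctss, a cathepsin of microglia, was at 50.4 and 320.0 RPKM (2.67), and Ctsb at 133.4 and 437.8 (1.71). The exceptions were Ctsf (0.03) and Ctsk (-0.36). Lysosomal enzymes and membrane proteins were higher for 18 of 33 (0.70), among them Grn, the progranulin gene, at 14.4 and 108.1 RPKM (2.90). The proton pump that acidifies the lysosome did not follow: 4 of its 20 subunits were higher, 1 was lower, and the median was -0.01. Of the 4, Atp6v0d2, a subunit of macrophages and osteoclasts, was listed at 0 in WT vehicle and at 1.56 RPKM in G93A vehicle, and Tcirg1, another subunit of such cells, was at 4.55 and 10.4 (1.18). Subunits of high level did not pass, such as Atp6v1b2 at 226.4 and 183.1 RPKM.

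The promoter of Ctsd, the cathepsin with the highest level in G93A vehicle, is shown with CACGTG, an E-box that factors of the lysosomal gene network bind. It lies at chr7:142387778-142388077 on the minus strand (RefSeq, GRCm38.p6).
Ctsd: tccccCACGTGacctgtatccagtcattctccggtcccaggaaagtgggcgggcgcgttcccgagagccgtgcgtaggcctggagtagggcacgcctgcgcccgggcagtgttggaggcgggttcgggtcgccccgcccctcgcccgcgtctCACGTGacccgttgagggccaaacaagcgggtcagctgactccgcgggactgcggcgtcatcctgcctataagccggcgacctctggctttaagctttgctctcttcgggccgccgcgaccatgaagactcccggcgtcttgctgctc

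Ctsd held the E-box 2 times. The E-box stood in 8 of 27 promoters of lysosomal enzymes and membrane proteins and 3 of 9 of cathepsins, against 10.3% of all 9077. Over the promoters of all higher genes the share was 9.19%. Of the 8 lysosomal genes with a match, Naglu (1.95) and Sgsh (0.60) were higher and the others did not pass. Among the cathepsins with a match Ctsf did not pass.

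Lipid genes split by direction. Genes of cholesterol efflux and lipid handling were higher for 17 of 26 (median 1.03), and genes of cholesterol synthesis were lower for 11 of 22 and higher for 0 (-0.61), 10 of them in both pairs. Ch25h, which makes 25-hydroxycholesterol, was at 0.158 RPKM in WT vehicle and 10.5 in G93A vehicle (5.37). Abca1, the cholesterol exporter, was at 4.90 and 17.9 (1.85). On the other side, Mvd, a decarboxylase of the mevalonate pathway, was at 14.2 and 7.11 RPKM (-0.99), and at 12 and 4.76 with SD. Insig1, a sensor that holds sterol synthesis back, was lower as well, at 47.6 and 25.6 RPKM (-0.89). For these genes both G93A libraries lay below both WT libraries. The sterol regulatory core TCACNCCAC was in 0 of 14 promoters of the synthesis list and in 1.05% of all 9077, which says only that these letters are not in those windows.

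Cell cycle genes, a list that also holds inhibitors of the cycle such as Cdkn1a, were higher for 14 of 22 and lower for 1. Their median was 0.97, and 0.51 at a mean of at least 5 RPKM. Mki67, the nuclear antigen of cycling cells, was at 0.225 RPKM in WT vehicle and 2.25 in G93A vehicle (2.85), and Top2a, the topoisomerase of replication, at 0.339 and 3.0 (2.82). The levels of both were low in each library. Pttg1, securin, was lower in the vehicle pair only, at 9.11 and 2.07 RPKM, against 9.59 and 9.54 with SD.

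Reactive astrocyte genes were higher for 27 of 28 (median 2.53), all 27 in both pairs. Gfap, the main intermediate filament of astrocytes, was at 441.1 RPKM in WT vehicle, 2269 in G93A vehicle, 386.3 in WT + SD and 2707 in G93A + SD (2.36 under vehicle). Vim, vimentin, another intermediate filament, was at 29.8 and 379.4 RPKM (3.67). Serpina3n, a secreted protease inhibitor, was at 27.8 and 472.7 RPKM (4.08), and Timp1, an inhibitor of metalloproteinases, at 0.185 and 30.6 (6.75). The G93A libraries were separate from the WT libraries for each of these. Genes of the list of STAT3 and cytokine receptors were higher for 17 of 26 (1.24). Among them were Socs3, a feedback inhibitor of STAT3, at 0.424 and 6.82 RPKM (3.72) and the oncostatin receptor Osmr at 1.08 and 11.5 (3.29).

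The genes of astrocyte transport and metabolism were split. Of 30 tested, 12 were higher and 1 lower, with a median of 0.33. Aqp4, the water channel of astrocyte endfeet, was at 159.5 RPKM in WT vehicle and 319.0 in G93A vehicle (1.0), Aldh1l1, a general astrocyte marker, at 17.5 and 36.4 (1.05), and Sox9, a glial transcription factor, at 5.76 and 14.5 (1.32). Slc1a2, the glutamate transporter GLT-1, was at 216.3 and 215.5 RPKM, a difference of -0.01, and Kcnj10, a potassium channel of astrocytes, at 235.9 and 224.2. The lower gene was Slc6a11, the GABA transporter GAT-3, at 106.2 and 58.7 RPKM (-0.85), and it was lower with SD too. Genes of both astrocyte lists together thus differed by amounts from -0.85 to 6.75.

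Of 10 cholinergic motor neuron genes tested, 4 were lower and 1 higher (median -0.47). Chat, the enzyme that makes acetylcholine, was at 9.83 RPKM in WT vehicle, 6.55 in G93A vehicle, 8.57 in WT + SD and 4.33 in G93A + SD. Its difference under vehicle was -0.58, just short of 1.5-fold, and Slc18a3, the vesicular acetylcholine transporter, was at 15.9 and 10.5 RPKM (-0.60). The gene that was higher was Anxa4, an annexin that glial and epithelial cells also express, at 5.42 and 12.7 RPKM. Among markers of fast and slow motor neurons 6 of 12 were lower and 1 higher (-0.56). Chodl, which marks fast motor neurons, was at 19.0 and 6.69 RPKM (-1.50), and at 15.2 and 3.80 with SD, and Mmp9, another gene of fast motor neurons, was at 2.61 and 1.3 (-0.95). The higher gene was Gfra1, the GDNF receptor, at 16.3 and 33.0 RPKM (1.01).

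Neurofilament subunits, which set the calibre of large axons, were lower: Nefh, the heavy chain, was at 327.2 RPKM in WT vehicle and 159.9 in G93A vehicle (-1.03), Nefm at 612.5 and 346.6 (-0.82), and Nefl at 812.1 and 412.5 (-0.98). With SD they were lower by more, with Nefl at 762.9 and 253.7. Of sequence windows of Nefl, 30.6% are shared with transcripts named Nefm, so that reads of Nefl may be split. Of the windows of the Nefm transcript examined 0 are shared. In the whole list of neurofilament and cytoskeletal genes 4 of 20 were lower and 0 higher (-0.32), and of the motors of axonal transport 4 of 22 were lower and 0 higher (-0.38), among them Kif5c, a kinesin heavy chain, at 144.6 and 94.1 RPKM (-0.62).

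**Figure D3:**
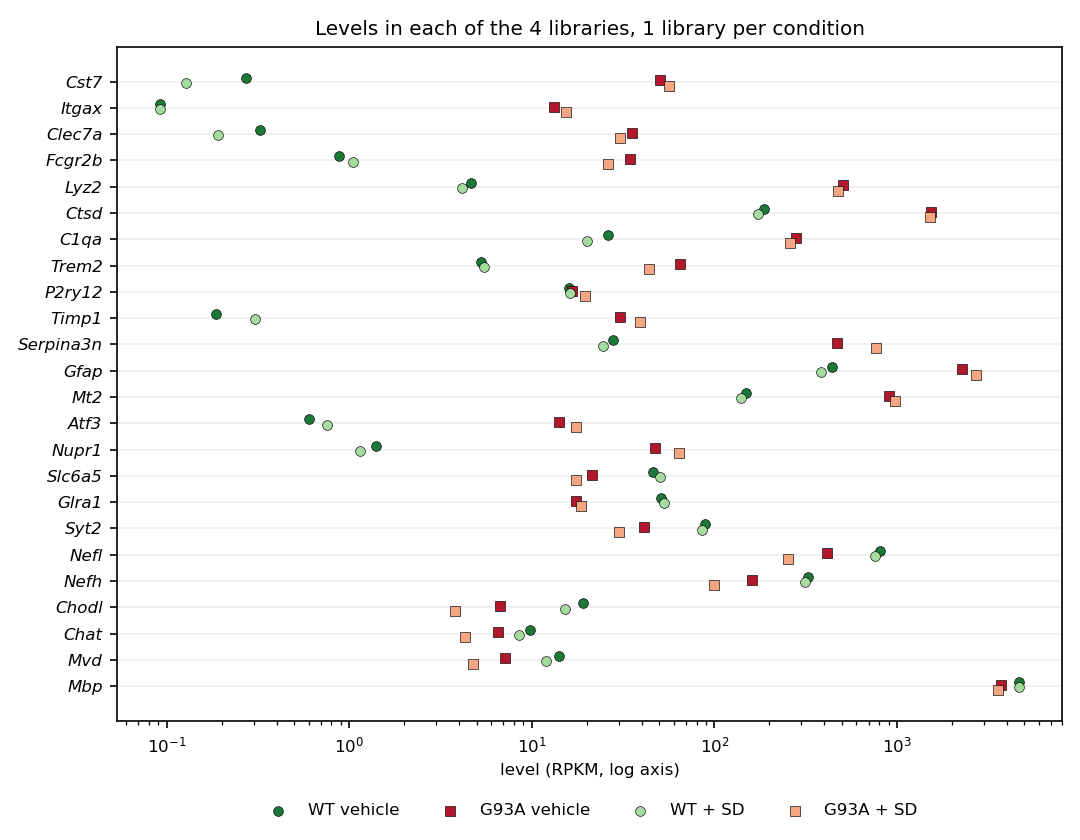
Level of 24 genes in RPKM on a log axis in each of the 4 libraries, with circles for WT and squares for G93A. For glial and injury genes from Cst7 to Nupr1 the squares lie to the right of the circles, by little for P2ry12, and for Slc6a5 to Mbp they lie to the left.

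Genes of synaptic vesicles and release were lower for 15 of 34 and higher for 0 (median -0.53), and all 15 were lower in both pairs. Syt2, the calcium sensor of fast-releasing terminals, was at 88.5 RPKM in WT vehicle and 41.3 in G93A vehicle (-1.10), and Snap25, a fusion protein of nerve endings, at 1268 and 781.8 (-0.70). Glutamate receptors and transporters were lower for 9 of 22 and higher for 0 (-0.51). Slc17a6, the vesicular glutamate transporter of excitatory interneurons, was at 58.7 and 36.5 RPKM (-0.68), while Gria1, an AMPA receptor subunit, differed by -0.03.

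Inhibitory transmission held the gene with the largest downward difference of the neuronal lists. Glycinergic and GABAergic genes were lower for 7 of 24 and higher for 1 (median -0.47). Glra1, the adult subunit of the glycine receptor on motor neurons, was at 50.8 RPKM in WT vehicle, 17.4 in G93A vehicle, 52.9 in WT + SD and 18.6 in G93A + SD (-1.54 under vehicle). Slc6a5, the glycine transporter of inhibitory terminals, was at 45.9 and 21.5 RPKM (-1.09). Each G93A library was below each WT library for both. Gabra2, a GABA receptor subunit, went the other way, at 30.8 and 52.3 RPKM (0.76). Dorsal horn neuropeptides and their receptors were less uniform, with 3 of 28 lower and 1 higher (-0.24); Penk, an opioid precursor of the dorsal horn, was at 100.9 and 79.4 RPKM, which did not pass, and the higher gene, the stress peptide Crh, was at 0.463 and 2.12.

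Ion channels that carry the action potential were lower or level. Sodium channels were lower for 4 of 10 and higher for 0 (median -0.45), with Scn1a, an axonal channel of fast-firing neurons, at 55.6 RPKM in WT vehicle and 31.2 in G93A vehicle (-0.83). Potassium channels were lower for 13 of 38 and higher for 1 (-0.46), with Kcna2, a channel beside the node of Ranvier, at 30.9 and 13.2 (-1.23), and Kcnk9, a leak channel, at 18.9 and 7.15 (-1.39). The single higher channel was Kcnk6, at 0.922 and 2.76 RPKM. Calcium buffers, pumps and channels were lower for 4 of 34 (-0.42), with the plasma membrane pump Atp2b3 at 26.8 and 15.4 (-0.79).

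**Figure D4:**
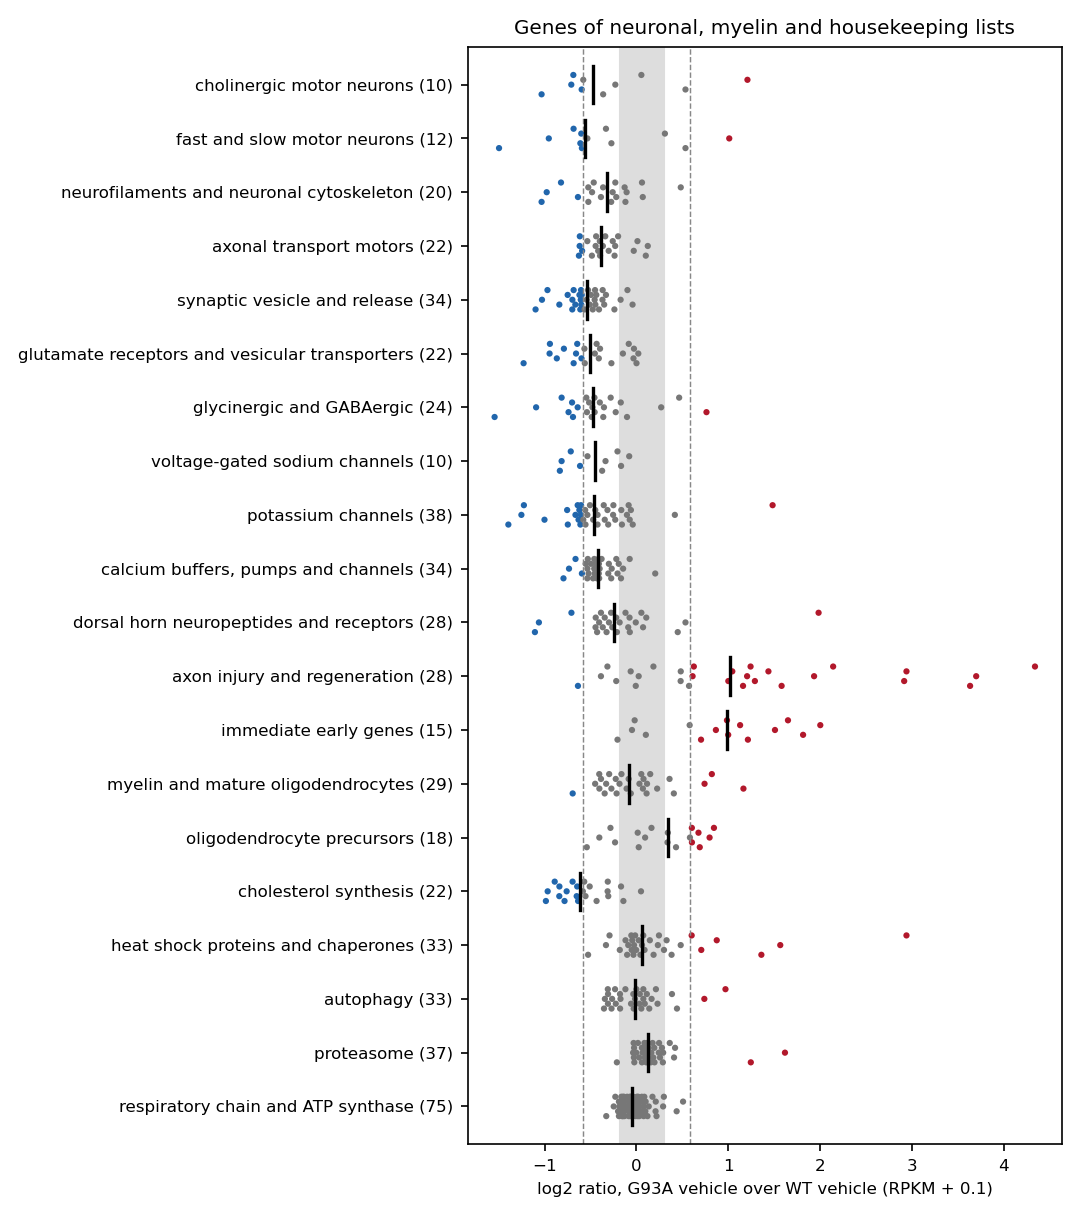
Log2 ratio of G93A vehicle to WT vehicle for each tested gene of 20 neuronal, myelin, metabolic and proteostasis lists, drawn as for the immune lists. The neuronal lists drawn here have medians between -0.24 and -0.56 except for axon injury (1.02) and immediate early genes (0.99), and all 75 genes of the respiratory chain lie within 1.5-fold.

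Genes of axon injury and regeneration were higher for 17 of 28 and lower for 1 (median 1.02), all 17 in both pairs. Some members, such as Cd44, Hspb1 and Lgals1, are in the reactive astrocyte list too, so the count is not that of neurons alone. Atf3, a stress transcription factor of injured motor and sensory neurons, was at 0.606 RPKM in WT vehicle and 14.2 in G93A vehicle (4.34), and at 0.760 and 17.5 with SD. Sprr1a, a cornified envelope protein that growing axons express, was at 0.602 and 9.01 (3.70). Gap43, a protein of growth cones, was at 74.5 and 104.2 (0.48), which did not pass. Immediate early genes were higher for 10 of 15 and lower for 0 (0.99, and 0.63 with a pseudocount of 1), 8 of them in both pairs, with Fos, a subunit of the AP-1 factor, at 5.78 and 23.4 RPKM (2.0). Of neurotrophic factors and receptors 10 of 25 were higher and 2 lower (0.36, and 0.05 at a mean of at least 5 RPKM), among them Igf1, an insulin-like growth factor that activated microglia release, at 0.887 and 5.02 RPKM (2.38), and Igfbp2, which binds it, at 10.2 and 95.7 (3.22).

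The promoter of Sprr1a is shown with TGANTCA, the motif of AP-1, of which Fos is a subunit. It lies at chr3:92485832-92486131 on the minus strand (RefSeq, GRCm38.p6).
Sprr1a: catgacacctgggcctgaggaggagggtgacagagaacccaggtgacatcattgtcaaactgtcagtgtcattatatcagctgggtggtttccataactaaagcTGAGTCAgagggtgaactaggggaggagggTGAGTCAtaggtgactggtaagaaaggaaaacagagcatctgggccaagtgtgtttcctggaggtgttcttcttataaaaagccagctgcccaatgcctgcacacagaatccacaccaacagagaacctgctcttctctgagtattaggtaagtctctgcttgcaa

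Sprr1a held the AP-1 motif 2 times. The motif stood in 4 of 20 promoters of axon injury genes and 5 of 25 of reactive astrocyte genes. The share was 4.68% over all 9077 promoters and 8.18% over those of all higher genes.

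Oligodendrocytes differed little. Of 29 myelin and oligodendrocyte genes 3 were higher and 1 lower, with a median of -0.08. Mbp, a main protein of myelin, was at 4669 RPKM in WT vehicle and 3714 in G93A vehicle (-0.33), which did not pass. The higher genes were Klk6, a protease of oligodendrocytes, at 97.9 and 219.7 (1.16), Cldn11, a tight junction protein of myelin, at 194.8 and 325.7 (0.74), and the iron carrier Trf, at 704.2 and 1244 (0.82), of which 76.9% of sequence windows are shared with another transcript. Oligodendrocyte precursor genes were higher for 6 of 18 (0.34), with Gpr17, a receptor of maturing precursors, at 10.4 and 16.8 RPKM (0.69).

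Endothelial, pericyte and barrier genes were higher for 4 of 25 and lower for 0, with a median of -0.01. Icam1 and Vcam1, which leukocytes grip, were at 0.915 and 7.2 RPKM (2.85) and at 7.83 and 20.3 (1.37), and the other higher genes were Kcnj8, a potassium channel of pericytes, at 1.72 and 4.04 (1.19), and Tjp1, a scaffold of tight junctions, at 18.8 and 30.8 (0.71). Cldn5, the tight junction protein of brain endothelium, differed by -0.01. Globins, a measure of blood in the tissue, were higher under vehicle, with Hba-a1 at 10.2 and 15.5 RPKM, but WT + SD held more, at 20.8, so that their order depended on which WT library was used, and their part in other results was not tested. Collagens were higher for 9 of 20 and lower for 1 (0.39), and metalloproteinases and inhibitors higher for 8 of 24 and lower for 2 (0.39). With no filter on low values these medians were 0.19 and 0.16. Mmp12, the elastase of macrophages, was listed at 0 in WT vehicle and at 3.94 RPKM in G93A vehicle.

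Metal and oxidant defences were higher for 11 of 28 and lower for 0 (median 0.41), all 11 in both pairs. Mt1 and Mt2, the metallothioneins that bind zinc and copper, were at 226.8 and 1049.7 RPKM (2.21) and at 148.8 and 900.3 (2.60), and Mt3, the neural form, was at 169.9 and 355.7 (1.07). Hmox1, which breaks down heme, was at 3.08 and 32.5 RPKM (3.36), and Prdx6, a peroxiredoxin of astrocytes, at 102.2 and 449.9 (2.14). Iron genes were higher for 9 of 17 (0.82, and 0.41 with no filter on low values). Hspb1, a small heat shock protein, was at 7.32 and 56.8 RPKM (2.94), although 55.9% of its windows occur in another transcript, while the list of chaperones it belongs to was higher for 6 of 33 with a median of 0.06.

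The promoters of Mt1 and Mt2 are shown with TGCACNC or TGCGCNC, the core of metal response elements, which the zinc-sensing factor MTF1 binds. Mt1 lies at chr8:94178839-94179138 and Mt2 at chr8:94172368-94172667, both on the plus strand (RefSeq, GRCm38.p6).
Mt1: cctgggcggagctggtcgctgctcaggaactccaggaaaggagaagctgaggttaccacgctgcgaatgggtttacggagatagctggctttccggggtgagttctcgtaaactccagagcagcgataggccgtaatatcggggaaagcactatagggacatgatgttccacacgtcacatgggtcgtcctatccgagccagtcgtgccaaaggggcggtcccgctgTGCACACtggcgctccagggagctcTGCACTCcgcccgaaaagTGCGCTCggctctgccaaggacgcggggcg
Mt2: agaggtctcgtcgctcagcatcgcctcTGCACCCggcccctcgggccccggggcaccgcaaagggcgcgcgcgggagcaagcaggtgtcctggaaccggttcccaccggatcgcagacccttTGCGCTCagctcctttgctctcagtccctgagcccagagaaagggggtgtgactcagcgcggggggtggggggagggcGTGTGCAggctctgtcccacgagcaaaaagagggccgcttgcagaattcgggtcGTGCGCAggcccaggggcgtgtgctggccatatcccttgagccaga

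The metal element had 3 matches in Mt1 and 4 in Mt2, and 3 or more in 3.67% of all 9077 promoters. Its share over the list of metal and oxidant defences was 7 of 21, against 37.7% of all promoters with at least 1 match.

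The respiratory chain and ATP synthase had 0 of 75 genes higher and 0 lower (median -0.05), autophagy 2 of 33 higher (-0.02), and the proteasome 2 of 37 higher (0.13), these being Psmb8 and Psmb9, the subunits of the immunoproteasome, at 2.12 and 6.72 RPKM (1.62) and at 1.21 and 3.01 (1.24). The unfolded protein and integrated stress response was higher for 8 of 30 (0.37), with the transcription factor Ddit3 at 13 and 27 RPKM (1.04). Apoptosis, necroptosis and p53 genes were higher for 18 of 27 (0.75), of which those with the largest differences, Bcl2a1b, Bcl2a1d and Bcl2a1a, are near-identical copies whose reads may be split. Glycolysis was higher for 5 of 24 (0.15), with Hk2, a hexokinase, at 0.569 and 2.94 RPKM (2.18). Mouse orthologs of ALS genes were higher for 1 of 34 and lower for 2 (-0.02), and the lower Vcp, at 15.7 and 7.65 RPKM, has 53.1% of its windows in a related locus.

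The study asked about LSD1, histone H3K4 methylation and polyamines. LSD1 (Kdm1a), a demethylase of H3K4, differed by 0.22 between G93A vehicle and WT vehicle. Among the 16 tested genes of its complex 0 were higher and 1 lower (median 0.00). The lower gene was the corepressor Rcor2, at 2.60 and 1.6 RPKM, which did not pass with SD. Among the 19 H3K4 methyltransferases and demethylases 0 were higher and 0 lower (0.01). Of 18 polyamine genes 3 were higher and 1 lower (0.08). Odc1, which makes putrescine from ornithine, was at 6.70 RPKM in WT vehicle and 13 in G93A vehicle (0.95), and Sat1, which acetylates spermidine and spermine for export or breakdown, was at 21.6 and 47.3 (1.13). Both differed in the same direction with SD.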

How the data were processed

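RNA of lumbar cord was measured in 4 libraries, 1 per condition, grouped by the sample labels. The authors deposited 1 table whose header names no unit. The deposited values were taken as RPKM from the values themselves, and depth was estimated from low values, which came out as whole multiples of a step for only 64.8% to 73.6% of those tested (within 0.1), so no count test was run. The methods describe STAR, GRCm38 (mm10) and HTSeq with Ensembl genes, while the rows are RefSeq transcripts (23750 rows, 18674 names). Deposited ratio columns, which hold the authors' fold ratios, were not used. Rows of a name were averaged, names with a mean under 1 left out, and a pseudocount of 0.1 RPKM added. Genes with near-identical copies are uncertain. The shared share of a transcript is that of its 108-base windows found in transcripts of other genes. Named genes are, per list, up to 4 members with the largest change past 1.5-fold and 2 with the highest mean, defining genes of cell types, and the 20 largest rises and falls at a mean of at least 5 RPKM. Any other gene named was picked with its values in view. The comparison and lists were chosen with earlier results of these data known. Tables were handled with pandas 2.3.3 and numpy 2.4.6 in Python 3.11.15 and drawn with matplotlib 3.10.9. The calculation was tested on simulated data and called 200 of 200 changed genes among 12874 run for G93A vehicle against WT vehicle. The simulation copied WT vehicle without noise and put changes larger than 1.5-fold on genes of at least 5 RPKM. It checks the arithmetic only and says nothing about calls between separate libraries. Some genes are counted in the lists but not reported by name here.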

Additional observations from a re-analysis of the deposited data

Results flagged for a closer look

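Among genes of 5 RPKM or more on average, 4 differed at least 1.5-fold in opposite directions between the genotypes under vehicle and under SD, with 1 library per condition, and the difference between the pairs was not tested. Capza1, an actin capping subunit, differed by -0.88 on the log2 scale under vehicle and by 0.76 with SD, at 7.90 RPKM in WT vehicle, 4.25 in G93A vehicle, 4.71 in WT + SD and 8.02 in G93A + SD. Hddc3 differed by -1.11 and 1.19, at 17.4, 7.99, 8.46 and 19.5 RPKM in the same order, and shares 68.6% of its sequence windows with other genes. Igfbp4, a binding protein of insulin-like growth factors, differed by 0.60 and -0.79, at 5.42, 8.30, 10.8 and 6.23 RPKM. LOC624853 differed by -0.68 and 3.96, at 172.9, 107.6, 6.55 and 103.4 RPKM, so that WT + SD stood apart from the other 3 libraries.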

How the results depend on the processing

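With 1 library per condition, all counts are descriptions of these libraries. No paired analysis was possible because each group has 1 library and the labels carry no replicate numbers. The 1696 higher and 563 lower genes became 1395 and 332 with a pseudocount of 1, 2687 and 991 with no filter on low values, 886 and 325 with a mean of at least 5 RPKM, and 869 and 71 at 2-fold. A pseudocount of 0.01 (1745 and 606), the row with the highest mean (1708 and 565), WT + SD in place of WT vehicle (1745 and 594) and scaling by median ratios (1526 and 773) stayed within 1.5 times. Scaling changed the share of higher genes among those past 1.5-fold from 75.1% to 66.4% and the median over all genes from 0.05 to -0.01. Of 67 lists with a median, 28 medians lay past 1.5-fold in size, and 0 of these changed sign under the alternatives run. The MHC class II, T cell, Ms4a and Serpina3 lists had too few genes for a median at a mean of at least 5 RPKM. The Serpina3 list had none under scaling either. Sizes were less stable. Medians moved by over 0.25 for 14 lists with a pseudocount of 1, 14 with a mean of at least 5 RPKM, 10 with WT + SD as the WT library, 9 with no filter, and at most 1 under each other alternative. Chemokines went from 2.25 to 0.71 with a mean of at least 5 RPKM, to 1.37 with a pseudocount of 1 and to 2.94 with WT + SD as the WT library. Immediate early genes went from 0.99 to 0.64 and interferon-stimulated genes from 0.85 to 1.35 with a mean of at least 5 RPKM. Under at least 1 alternative 8 of the 28 medians came under 1.5-fold, among them interferon-stimulated genes (0.51, pseudocount of 1), cell cycle (0.51, mean of at least 5), iron (0.41), galectins (0.35) and T cells (0.36, these with no filter), and cholesterol synthesis (-0.50, WT + SD as the WT library). Lists that changed sign had medians of up to 0.35 in size, that one being globins and heme synthesis (-0.06 with WT + SD as the WT library). Depth limits genes that are near 0 in WT, whose ratios rest on few reads and understate or overstate the change with the pseudocount.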

Other observations

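Of the higher genes 1261 and of the lower genes 460 stand in none of the lists. Among those with the largest rises were Tgm1, a transglutaminase, at 0.0617 RPKM in WT vehicle and 11.2 in G93A vehicle (log2 difference 6.12), Wisp2, a secreted matricellular protein, at 0.143 and 10.9 (5.50), and Nupr1, a small nuclear protein of the stress response, at 1.40 and 47.3 (4.98). All 3 had differences in the same direction with SD. Among those with the largest falls, Chrm2, a muscarinic acetylcholine receptor, was at 17.3 and 7.69 RPKM (-1.16), and Caln1, a neuronal calcium-binding protein, at 19.4 and 8.43 (-1.20), both again lower with SD.

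Ribosomal protein genes were higher for 26 of 77 and lower for 4 (median 0.45), 13 of the 26 in both pairs. Rps18, at 15.8 RPKM in WT vehicle and 32.6 in G93A vehicle, was at 0.798 and 1.51 with SD, and Hmga1 at 19.2 and 12.7 under vehicle and 1.12 and 1.04 with SD. Both share over 50% of their windows with other genes, and the gap between vehicle and SD libraries was seen in both genotypes.

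The genes with the largest falls held both kinds of pattern. Hmgn2, a nucleosome-binding protein, was lower in both pairs, at 9.77 and 1.34 RPKM under vehicle and 9.11 and 1.27 with SD, and shares 45.3% of its windows with other genes. Rpl26, a ribosomal protein, was at 7.44 and 1.22 under vehicle, but at 11.4 and 13 with SD, and shares 30.1% of its windows. Serpina3h, of the serpin cluster that holds Serpina3n, was at 0.635 and 22.7 RPKM under vehicle and at 0.595 and 0.707 with SD, so that G93A vehicle stood apart from the other 3 libraries.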
